A study of Gallus gallus with 48 samples.

Results

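The serine/threonine protein phosphatase subunits measured here are the genes whose symbol in the platform annotation begins with PPP, then a digit from 1 to 6, then C for a catalytic or R for a regulatory subunit. The rule used names only and no measured value, but the family was chosen with earlier results of these data known. The rule found 120 of the 38382 tested probe sets, which belong to 52 of the 13009 named genes. Catalytic subunits account for 8 genes and 17 probe sets, and regulatory subunits for 44 genes and 103 probe sets. The samples were retina with retinal pigment epithelium (retina/RPE) from 24 White Leghorn chicks, under 2 weeks old. At 1 week of age each bird was its own comparison: a lens of -15 or +15 diopters (D) was fixed over 1 eye for 6 hours or 3 days, and the fellow eye without a lens served as its control. With 6 birds in each of the 4 conditions, lens and control eyes formed 8 groups of 6 arrays. The birds were reared in 12 hours of light per day.

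These enzymes remove phosphate from serine and threonine, and each catalytic subunit is steered by many partners. Protein phosphatase 1 (PP1) binds targeting proteins and inhibitors. Protein phosphatase 2A (PP2A) joins its catalytic subunit to a scaffold and an exchangeable B subunit, and calcineurin (PP2B) is switched on by calcium through its B subunit. Protein phosphatases 4 and 6 are close relatives of PP2A with regulatory subunits of their own. In retinal neurons calcineurin and the PP1 inhibitors of the DARPP-32 family are known as places where calcium, dopamine and cyclic nucleotide signals meet, and in smooth muscle the myosin-targeting subunits set actomyosin tension.

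The array medians lay between 6.38 and 6.50 log2. Probe sets for viral sequences gave a background level of 4.50, their 95th percentile. Of the 120 subunit probe sets, 114 had a mean above it, and PPP1R27 was the 1 gene whose brightest probe set had a mean below it. Every probe set was tested, the viral ones included, with no filter on signal. Of the 38382 tested probe sets, 8295 had a mean below background. The shares over all probe sets therefore include more dim signals than the subunit counts. The tissue label was checked against marker genes: the mean over the measured photoreceptor genes lay between 9.70 and 10.9 in the 24 control eyes, and that over the pigment epithelium genes between 8.87 and 10.6. Levels of lens fibre, striated muscle and choroid genes differed by several log2 units between the eyes of some birds in 3 of the 4 conditions. In such bulk tissue, fewer cells of a type and less RNA per cell cannot be told apart.

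The first question was whether a lens moved these subunits. After 3 days of -15 D, 1 probe set of PPP2R2A, a B subunit of PP2A, fell, and no other subunit probe set passed the test in any lens condition (limma with the bird as block, adjusted p under 0.05 over all probe sets). This 1 of 120 stood beside 27 called among all 38382, or 0.0703%, and beside 0.0521% for falls alone. Earlier results of these data had already shown PPP2R2A as called, so the count describes the family and does not test it. After 6 hours of -15 D, 0 of the 120 were called against 0.0391% of all probe sets. The +15 D lens gave 0 of 120 at the earlier time, against 0.00782%, and 0 of 120 at the later one, against 0.00521%. At an unadjusted p under 0.05 the same fits held 10, 9, 18 and 6 of the 120 for -15 D at 6 hours, +15 D at 6 hours, -15 D at 3 days and +15 D at 3 days. The shares of all probe sets were 10.1%, 7.51%, 14.2% and 3.92%, so none of these 4 counts lay far from its background.

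Directions differed between the conditions. All 10 subunit probe sets at an unadjusted p under 0.05 after 6 hours of -15 D were lower in the lens eye, as were 2945 of the 3885 among all probe sets, or 7.67% of those tested. After 3 days of -15 D, 10 were lower and 8 higher, against 7.1% lower and 7.12% higher among all probe sets. Counting 1 probe set per gene, the brightest, 32 of 52 genes lay below 0 after 6 hours of -15 D, 34 after 6 hours of +15 D, and, at 3 days, 22 with -15 D and 28 with +15 D. The share of all 13009 genes below 0 was 45.2%, 52.4%, 39.8% and 52.2% in the same order. The median difference of the 52 genes stayed between -0.034 and 0.013 log2 in all 4 conditions. A total of 19 subunit probe sets lay below 0 in all 4 conditions and 5 lay above, against 8.95% and 8.86% of all probe sets.

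**Figure D1:**
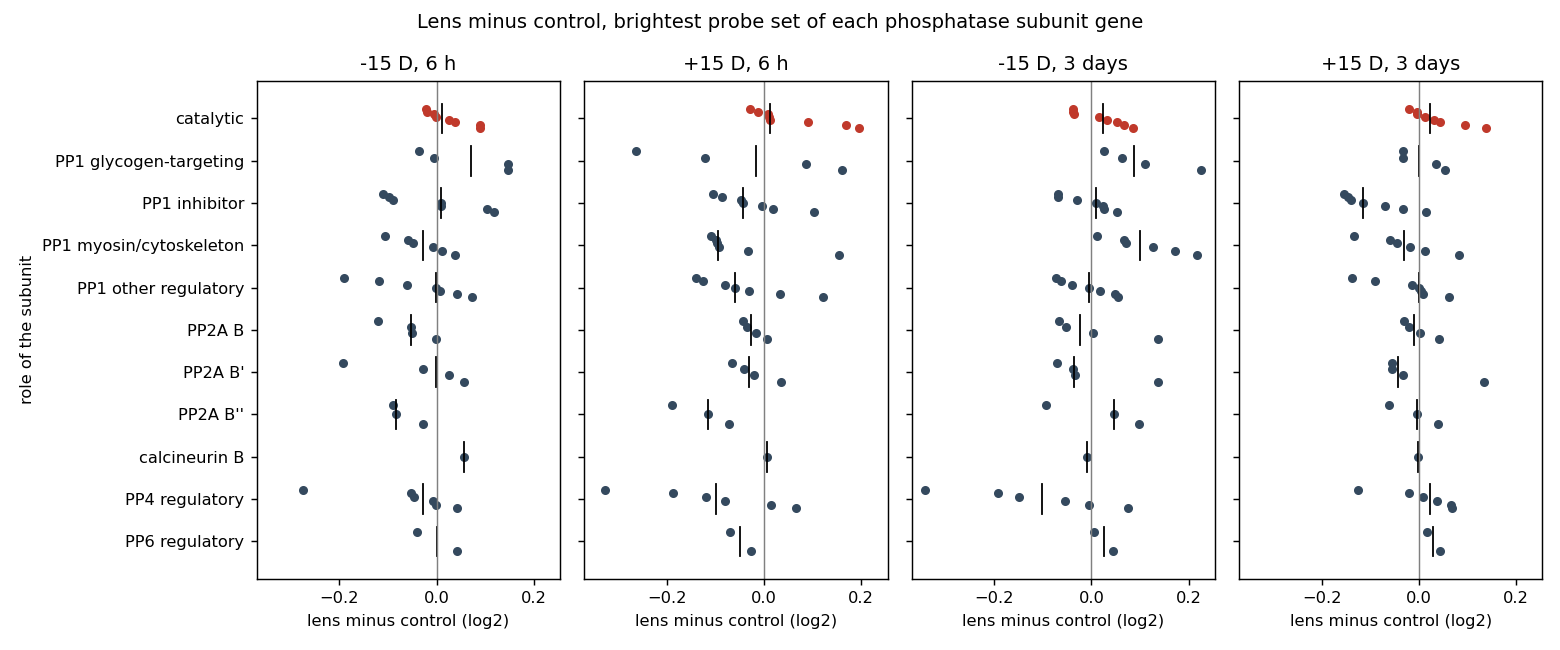
Lens minus control difference (log2) of the brightest probe set of each of the 52 genes, by role, in the 4 conditions. Points are means over 6 birds, red for catalytic and dark for regulatory subunits, and vertical bars are the medians of each role. The catalytic points stay between -0.04 and 0.19, while the lowest regulatory points, PPP4R1 at -0.27 after 6 hours of -15 D and PPP4R4 at -0.33 and -0.34, belong to the PP4 regulators.

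None of the 8 measured catalytic genes passed the test under a lens. No probe set was annotated to the catalytic subunits PPP3CC, PPP4C and PPP5C or to a scaffold subunit of PP2A, so these could not be read. The 8 brightest catalytic probe sets had differences from -0.02 to 0.09 after 6 hours of -15 D, from -0.03 to 0.19 after 6 hours of +15 D, and at 3 days from -0.04 to 0.09 with -15 D and from -0.02 to 0.14 with +15 D. None of the 17 catalytic probe sets passed the test in any condition, and at an unadjusted p under 0.05 there were 0, 2, 0 and 0. The catalytic median exceeded the regulatory median by 0.03 log2 (SD over birds 0.04, n = 6) after 6 hours of -15 D, by 0.06 (SD 0.08, n = 6) after 6 hours of +15 D, and at 3 days by 0.01 (SD 0.05, n = 6) with -15 D and by 0.04 (SD 0.07, n = 6) with +15 D. Each of these gaps was smaller than the SD between single birds, which is not the error of the gap, and the gap was not tested. It was above 0 in 4, 5, 5 and 4 of the 6 birds.

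Among the catalytic genes, both that reached an unadjusted p under 0.05 did so after 6 hours of +15 D. By its brightest probe set PPP3CB, a calcineurin catalytic subunit, was higher in the lens eye in 6 of 6 birds. The differences were 0.10 to 0.29 log2 (mean 0.19, SD 0.07, adjusted p = 0.66). For that probe set the control eyes lay between 7.71 and 8.47 and the lens eyes between 7.99 and 8.58. The groups overlapped, and the shift was seen only within birds. The dimmer PPP3CB probe set went the other way in the same birds, with a mean of -0.10. PPP2CB, the beta catalytic subunit of PP2A, was also higher in 6 of 6 birds, with a mean of 0.17 (SD 0.22, adjusted p = 0.66). That mean rested on birds 1 and 6, at 0.54 and 0.33, and the other birds lay between 0.02 and 0.06. In birds 1 and 6 the ratio of 3' to 5' actin signal, a measure of RNA quality, was lower in the lens eye by 0.71 and 0.47. The other birds of that condition lay between -0.14 and 0.10 in that ratio. No link between the ratio and the PPP2CB difference was tested.

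The remaining catalytic genes changed little. PPP1CA, a PP1 catalytic subunit, had differences of 0.09, 0.09, 0.05 and 0.03 in the order -15 D at 6 hours, +15 D at 6 hours, -15 D at 3 days and +15 D at 3 days, and PPP6C, the PP6 catalytic subunit, of 0.04, 0.01, 0.09 and 0.04. In the same order PPP1CB gave 0.02, -0.01, 0.07 and -0.0029, and PPP1CC, the third PP1 catalytic subunit, -0.01, 0.01, -0.04 and -0.02. PPP2CA, the alpha catalytic subunit of PP2A, gave -0.02, -0.03, 0.02 and 0.01, and PPP3CA, the other measured calcineurin catalytic subunit, -0.02, 0.01, 0.03 and -0.0029. Over the 24 control eyes PPP1CC varied with an SD of only 0.05, PPP3CA and PPP2CA with 0.07, and PPP2CB with 0.33.

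PPP2R2A encodes the B-alpha subunit, which in mammals directs PP2A to substrates such as tau and Akt. It was measured by 4 probe sets, and they did not move together. For the third brightest of them, with a mean of 5.99 over all arrays, after 3 days of -15 D, the 6 control eyes had a lowest value of 5.55, a median of 6.01 and a highest value of 6.29 log2, and the 6 lens eyes 4.65, 5.33 and 5.63. The lens eye was the lower one in every bird, by 0.44 to 1.20 log2, although the lowest control eye lay below the highest lens eye. The mean difference was -0.74 (SD 0.28, SE 0.10, n = 6), a 1.67-fold fall, with an adjusted p of 0.0025. The same probe set differed by -0.03, 0.06 and 0.05 in the -15 D birds at 6 hours and the +15 D birds at 6 hours and 3 days, with 4, 2 and 4 of 6 birds lower.

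The brightest PPP2R2A probe set, with a mean of 10.04, went the other way after 3 days of -15 D. Its control eyes had a lowest value of 10.04, a median of 10.05 and a highest of 10.13, and its lens eyes 10.09, 10.20 and 10.30. It was higher in 5 of 6 birds, by 0.14 on average (SD 0.08, adjusted p = 0.107), and did not pass. It passed as a rise in 2 alternatives. Among probe sets above the median signal, where the probe set that fell was too dim to be tested, the limma adjusted p was 0.046. With array weights, a setting that called far more of all probe sets than the main fit, it was 0.018. The second brightest, with a mean of 6.14, differed by -0.08 (SD 0.29, adjusted p = 0.83) with 3 birds on either side. The dimmest had a mean of 4.36, below the background level, and differed by -0.10 after 3 days but by -0.45 (SD 0.34, adjusted p = 0.0989) after 6 hours of -15 D, in 5 of 6 birds.

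**Figure D2:**
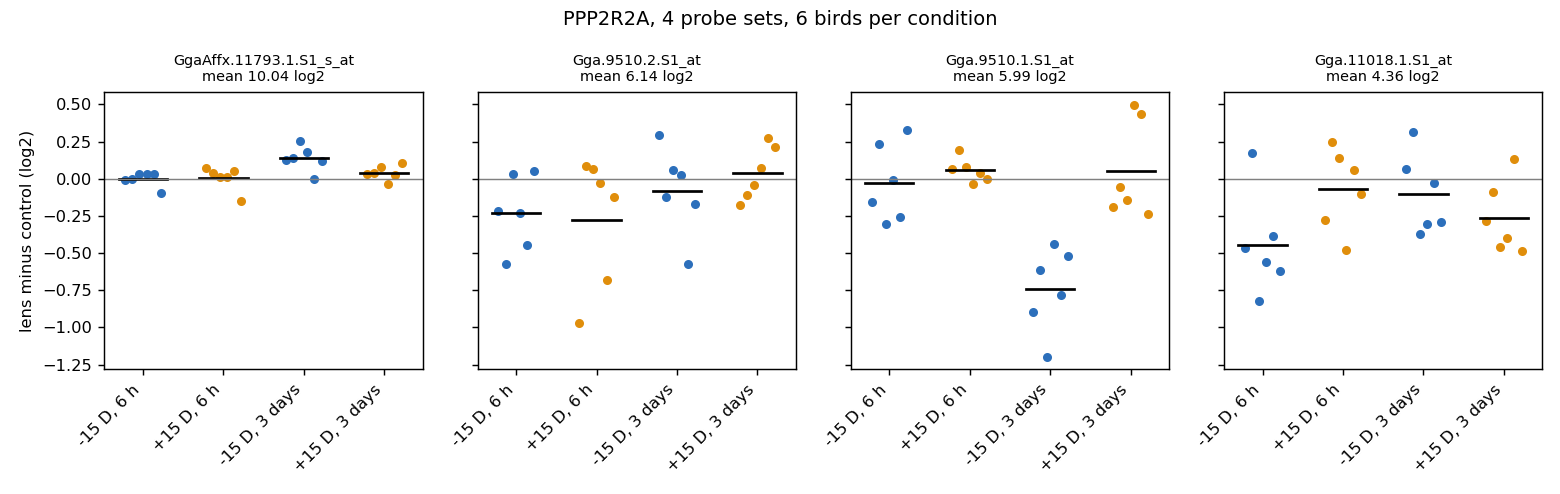
Within-bird lens minus control differences (log2) for the 4 PPP2R2A probe sets, ordered by mean signal. Each point is 1 bird (blue for -15 D, orange for +15 D) and each bar a mean of 6 birds. All 6 birds with 3 days of -15 D lie between -1.20 and -0.44 in the third panel, while the brightest probe set in the first panel averages 0.14.

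The call for PPP2R2A depended on the bird pairing and on 1 covariate. Without the replicate block the adjusted p was 0.962, and with the ratio of 3' to 5' actin signal, a measure of RNA quality, as covariate the difference was -0.68 with an adjusted p of 0.115. That actin ratio was higher in the lens eye in all 6 birds with 3 days of -15 D, by 0.18 to 0.51 log2. In those birds the mean of the striated muscle genes was higher in the lens eye of birds 5 and 6, by 3.72 and 4.74, and that of the lens fibre genes lower in bird 4, by 5.10. Choroid and vessel genes were higher by 1.24, 1.19 and 1.53 in birds 2, 5 and 6. The PPP2R2A probe set differed by -0.89, -0.62 and -1.20 in birds 1, 2 and 3, and by -0.44, -0.78 and -0.52 in birds 4, 5 and 6. The part of muscle, lens fibre, choroid and vessel tissue in the result was not tested. Leaving out any single bird left the difference between -0.80 and -0.65 and the call in place.

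The other B subunits, PPP2R2B, PPP2R2C and PPP2R2D, gave no call. PPP2R2D was measured by 5 probe sets, and 4 of them lay below 0 in all 4 conditions. By its brightest probe set the differences were -0.05, -0.04, -0.07 and -0.03, in the order -15 D at 6 hours, +15 D at 6 hours, -15 D at 3 days and +15 D at 3 days. PPP2R2B, the neuronal B-beta subunit, was also below 0 in all 4, at -0.05, -0.02, -0.05 and -0.02. PPP2R2C, the B-gamma subunit, differed by -0.12 (SD 0.20) after 6 hours of -15 D, with bird 3 at -0.49, and by 0.0041 and 0.0027 after 3 days of -15 D and +15 D.

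The B prime subunits, which hold the PPP2R5 genes, showed a similar spread within 1 gene. PPP2R5C, the B-prime-gamma subunit, was lower after 6 hours of -15 D by its brightest probe set in 6 of 6 birds, by 0.04 to 0.48 (mean -0.19, SD 0.17, adjusted p = 0.259). After 3 days of -15 D that probe set averaged -0.07, but the dimmest averaged -0.34 (SD 0.19, adjusted p = 0.13) with 6 of 6 birds lower, and the second brightest averaged 0.19. PPP2R5D, the delta subunit, was higher on average in all 4 conditions, by 0.06, 0.03, 0.14 and 0.13, and PPP2R5E, the epsilon subunit, lower in all 4, by 0.03 to 0.04. PPP2R5A, the alpha subunit, stayed between -0.05 and 0.02, and its SD over the 24 control eyes was 0.06.

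The B double prime subunits bind calcium. For PPP2R3B after 3 days of -15 D, its second brightest probe set had control eyes with a lowest value of 5.77, a median of 6.10 and a highest of 6.25, and lens eyes at 5.39, 5.76 and 5.85. It was lower in 5 of 6 birds, and bird 6 stood at 0.0063, so that the groups overlapped. The mean was -0.35 (SD 0.23, adjusted p = 0.0774), against 0.20 (SD 0.25) after 3 days of +15 D. Without the birds whose 2 eyes differed most over all probe sets, none of which belongs to this condition, its adjusted p was 0.0481. The brightest PPP2R3B probe set averaged -0.09 and -0.06 after 3 days of the -15 D and +15 D lens. PPP2R3A was measured by 6 probe sets, which ranged from -0.25 to 0.25 after 3 days of -15 D, each of those extremes with the same sign in 6 of 6 birds.

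Among the PP1 regulators, no probe set passed the test under a lens. PPP1R16B, a myosin-targeting relative known in endothelium, was higher after 3 days of -15 D in 6 of 6 birds, by 0.09 to 0.43 (mean 0.22, SD 0.13, adjusted p = 0.111). After 3 days of +15 D it was lower in 5 of 6 birds (mean -0.13, SD 0.13, adjusted p = 1.0). All 6 brightest probe sets of the myosin and cytoskeleton group lay above 0 after 3 days of -15 D, where 39.8% of all genes lay below 0. They ran from 0.01 for PPP1R12A, the myosin phosphatase target subunit, to 0.22 for PPP1R16B. The second brightest PPP1R12A probe set was lower in every bird there (mean -0.20), and the 6 of that gene ranged from -0.20 to 0.22. The 0.22 belonged to the dimmest, with a mean of 3.41 over the control eyes, below background. After 6 hours of +15 D, 5 of the 6 brightest probe sets of the group lay below 0, against 52.4% of all genes. A dim probe set of PPP1R12B, a myosin phosphatase target subunit with a mean of 4.53 close to background, was higher after 3 days of -15 D in 6 of 6 birds (mean 0.17, SD 0.12) and after 3 days of +15 D in 5 of 6 (mean 0.20, SD 0.24). PPP1R19L, for which RefSeq lists the spinophilin name PPP1R9B as a synonym, stood at 0.17 (SD 0.20) after 3 days of -15 D.

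The PP1 inhibitors were mostly below 0 after 3 days of +15 D, with 6 of 7 brightest probe sets against 52.2% of all genes. PPP1R17, the G-substrate of cGMP-dependent kinase, was lower in 6 of 6 birds, by 0.03 to 0.23 (mean -0.14, SD 0.09, adjusted p = 1.0). PPP1R1A, inhibitor-1, was lower in 6 of 6, by 0.03 to 0.31 (mean -0.15, SD 0.11, adjusted p = 1.0). PPP1R1C, a relative of DARPP-32, averaged -0.11 (SD 0.18) there, and after 6 hours of +15 D it was lower in every bird by 0.05 to 0.14 (mean -0.11, SD 0.03, adjusted p = 0.672). PPP1R1B, DARPP-32 itself, differed by 0.01, 0.10, 0.02 and -0.03 across -15 D at 6 hours, +15 D at 6 hours, -15 D at 3 days and +15 D at 3 days. The dimmer PPP1R1A probe set was higher after 6 hours of +15 D in 6 of 6 birds (mean 0.20, SD 0.18, adjusted p = 0.66). PPP1R2, inhibitor-2, stayed between -0.0050 and 0.014 in all 4 conditions.

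In the remaining PP1 groups the values after 6 hours stood out most. PPP1R13B, the p53-binding protein ASPP1, was lower after 6 hours of -15 D in 5 of 6 birds (mean -0.19, SD 0.18, adjusted p = 0.227) and after 6 hours of +15 D in 5 of 6 (mean -0.14, SD 0.21, adjusted p = 0.661). PPP1R8, the nuclear inhibitor NIPP1, was higher after 6 hours of +15 D in 5 of 6 birds (mean 0.12, SD 0.15). By their brightest probe sets the 4 glycogen-targeting subunits did not share a direction at 6 hours. All 4 lay above 0 after 3 days of -15 D, between 0.03 and 0.23, where 39.8% of all genes lay below 0. In that condition the dimmer probe set of PPP1RL averaged -0.29 and the second brightest of PPP1R3C -0.25. By its brightest probe set PPP1RL, for which RefSeq lists the glycogen-targeting name PPP1R3E as a synonym, was above 0 in all 4 conditions, by 0.04 to 0.16. That mean after 6 hours of -15 D rested on bird 5 at 0.58. PPP1R7, the nuclear PP1 regulator SDS22, stayed between -0.03 and 0.05.

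PPP3R1, the calcium-binding B subunit of calcineurin, gave different answers from its 2 probe sets. The dimmer one after 3 days of -15 D had control eyes at a lowest value of 6.55, a median of 7.26 and a highest of 7.64, and lens eyes at 6.46, 6.65 and 7.09. It was lower in 6 of 6 birds, by 0.10 to 0.85 (mean -0.42, SD 0.31, adjusted p = 0.121), and the 2 groups overlapped. The brighter probe set of the gene averaged -0.0087 in the same birds.

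Of the PP4 regulators, PPP4R4, a cytosolic regulator of PP4, was the one with low p in 2 conditions. After 3 days of -15 D its control eyes had a lowest value of 6.78, a median of 6.94 and a highest of 7.23, and its lens eyes 6.46, 6.63 and 6.80. The groups overlapped slightly. It was lower in 6 of 6 birds, by 0.15 to 0.67 (mean -0.34, SD 0.19, adjusted p = 0.102). After 6 hours of +15 D it was again lower in 6 of 6, by 0.16 to 0.73 (mean -0.33, SD 0.21, adjusted p = 0.66), and the other 2 conditions gave -0.05 and -0.13. PPP4R1 was lower after 6 hours of -15 D in 6 of 6 birds, by 0.04 to 0.49 (mean -0.27, SD 0.17, adjusted p = 0.172), while the brightest probe set of PPP4R2, a core regulator of PP4, stayed between -0.01 and 0.06. For PP6, the second brightest probe set of PPP6R3 was lower after 6 hours of -15 D in 6 of 6 birds, by 0.15 to 0.85 (mean -0.36, SD 0.27, adjusted p = 0.163), and the brightest PPP6R3 probe set averaged -0.04.

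The 2 birds with the widest eye differences after 6 hours of -15 D, birds 3 and 5, were among the lowest for several of these genes. Lens fibre genes were lower in the lens eye of both, by 2.88 and 5.71, and choroid and vessel genes differed by 4.02 in bird 3 and by -1.98 in bird 5. These birds gave -0.33 and -0.48 for PPP2R5C, -0.41 and -0.49 for PPP4R1 and -0.39 and -0.36 for PPP1R13B. Without both, the 6-hour differences were -0.09 for PPP2R5C, -0.19 for PPP4R1, -0.10 for PPP1R13B, -0.24 for PPP6R3 and -0.03 for PPP2R2C. After 3 days of +15 D, choroid and vessel genes were higher by 3.20 in bird 1 and lens fibre genes lower by 5.11 in bird 3, and without bird 1 PPP1R17 stood at -0.12, PPP1R1A at -0.13 and PPP1R1C at -0.06. The part of these tissues in the differences was not tested.

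By their brightest probe sets, the 12 genes PPP1R12B, PPP1R14D, PPP1R15B, PPP1R19B, PPP1R21, PPP1R27, PPP1R42, PPP2R3C, PPP4R1L, PPP4R3A, PPP4R3B and PPP6R2, had lens differences between -0.19 and 0.15 in the 4 conditions.

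**Figure D3:**
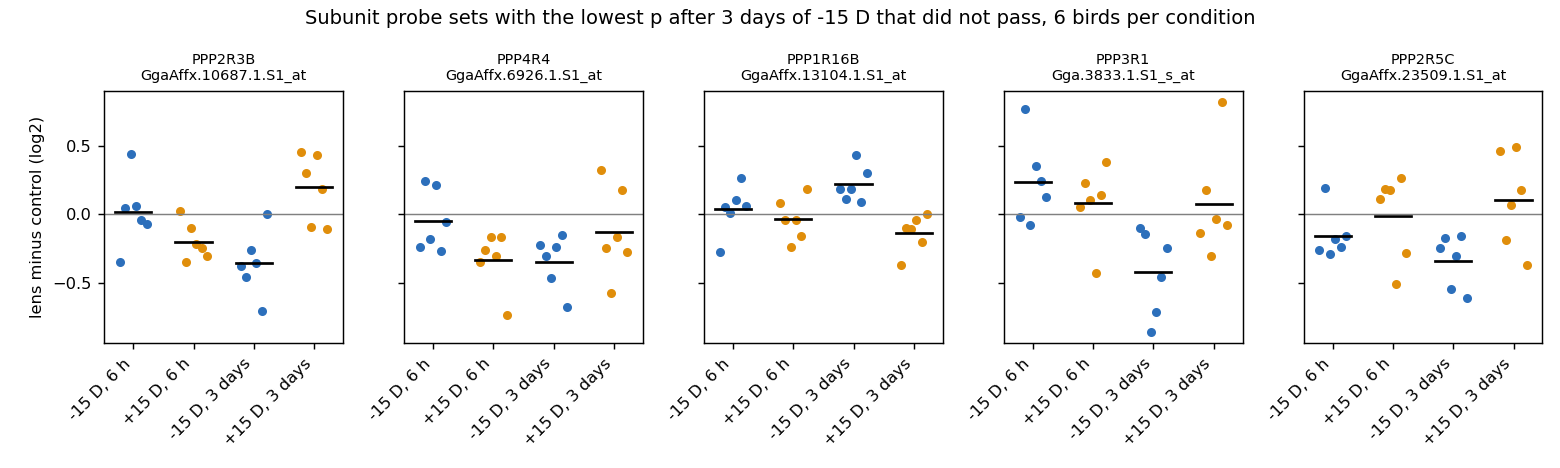
Within-bird lens minus control differences (log2) in the 4 conditions for 5 subunit probe sets with low p after 3 days of -15 D that did not pass the test. Each point is 1 bird (blue for -15 D, orange for +15 D) and each bar a mean of 6 birds. PPP4R4, PPP3R1 and PPP2R5C lie below 0 and PPP1R16B above 0 in all 6 birds after 3 days of -15 D, and PPP2R3B in 5 of 6.

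Differences of the lens effect between powers and between durations were tested by 4 interaction contrasts. None of the 120 probe sets passed any of them, against 0% of all probe sets for -15 D minus +15 D at 6 hours, 0% at 3 days, 0.0104% for -15 D at 3 days minus 6 hours and 0% for +15 D at 3 days minus 6 hours. At an unadjusted p under 0.05 the 3-day contrast of the lens powers held 11 of 120, 9 lower and 2 higher, against 9.26% of all probe sets. For the PPP2R2A probe set that fell, the -15 D effect at 3 days differed from the +15 D effect by -0.79 (SE 0.14, adjusted p = 0.382) and from the -15 D effect at 6 hours by -0.72 (SE 0.14, adjusted p = 0.247). Neither difference passed, so the fall in PPP2R2A was not shown to differ between lens powers or times. The same 3-day contrast was -0.55 (SE 0.13, adjusted p = 0.402) for the second brightest PPP2R3B probe set and 0.35 (SE 0.09, adjusted p = 0.402) for PPP1R16B.

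The distance between probe sets of 1 gene was widest after 3 days of -15 D, with a median range of 0.17 against 0.09 to 0.11 in the other conditions. Of the 30 genes with several probe sets, 18 had probe sets on both sides of 0 in that condition, as did 18 after 6 hours of -15 D, 13 after 6 hours of +15 D and 18 after 3 days of +15 D. With -15 D at 3 days the probe sets of 3 genes lay over 0.5 log2 apart: PPP2R2A by 0.88, PPP2R5C by 0.53 and PPP2R3A by 0.50. For PPP2R3A the lowest difference came from a probe set close to background. In the other 3 conditions no gene passed 0.5. Of the values with -15 D at 3 days, 3 of the 52 brightest probe sets (5.77%) and 15 of the 68 dimmer ones (22.1%) had an unadjusted p under 0.05. Over all named genes the same shares were 15.8% of the brightest and 15.3% of the others. Which transcript forms the probe sets bind is not given in the files used here.

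Genes that act with these enzymes but lie outside the naming rule were read from 3 lists. These held 27 measured genes listed as partners and inhibitors of PP1 and PP2A, 14 modulators and targets of calcineurin and 18 metal-dependent phosphatases. The partner list also held PPEF2, which is itself a phosphatase. By their brightest probe sets, none passed the test in any of the 4 lens comparisons. At an unadjusted p under 0.05 there were 4, 3, 5 and 0 partners, 0, 0, 2 and 0 calcineurin genes and 1, 2, 5 and 0 metal-dependent phosphatases, in the order -15 D at 6 hours, +15 D at 6 hours, -15 D at 3 days and +15 D at 3 days. Their background shares among all genes were 9.22%, 7.22%, 15.8% and 3.23%. List medians stayed between -0.05 and 0.04 log2.

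The untreated control eyes were then compared between 3 days and 6 hours, which asks how the subunits differ between birds sampled at these times. PPP1R3C, a subunit that brings PP1 to glycogen, was the largest difference and fell by 3 of its 4 probe sets. PPP1R1C, a PP1 inhibitor, also fell, and PPP1R13B rose. These 5 probe sets of 120 stood beside 711 called among all probe sets, or 1.85%. The 4 that fell and the 1 that rose compare with 1.08% and 0.769% of all probe sets. At an unadjusted p under 0.05 there were 20 of 120 against 13.5%, and 9 of the 52 brightest against 15.9%. The family was chosen with earlier results known, so these shares describe it and do not test it. The 12 eyes at each time came from different birds, so time, age and the set of birds cannot be told apart, and these arrays also serve as the controls of the lens comparisons.

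PPP1R3C showed the same pattern in most of its probe sets. For the brightest, the 12 control eyes at 6 hours had a lowest value of 6.02, a median of 6.81 and a highest of 7.18 log2, and the 12 at 3 days 5.63, 5.88 and 6.42. The means were 6.71 ± 0.34 and 5.90 ± 0.20 (SD, n = 12 each), a 1.75-fold fall (difference -0.81, SE 0.11, limma adjusted p = 3.84e-05), and the ranges overlapped. For the second brightest the 6-hour eyes lay between 5.00 and 6.09 and the 3-day eyes between 4.07 and 4.81, with no overlap. Only 78 of all probe sets, 0.203%, separated the 12 and 12 eyes in this way.

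The difference of that second probe set was -1.04 log2 (SE 0.10, limma adjusted p = 4.12e-07), and 5 of the 12 eyes at 3 days lay below the background level. The third fell by 0.54 (limma adjusted p = 0.00201), and the dimmest, with means of 4.53 and 4.49 near background, differed by -0.03. Within the birds that wore -15 D lenses the brightest probe set differed by -0.69 and within those that wore +15 D lenses by -0.93, so both sets of birds held the direction. The lens eyes gave -0.67 for the brightest probe set and -1.04 for the second brightest. They came from the same birds at the same times, so they are not an independent check. The other glycogen-targeting subunits did not pass, with PPP1R3B at 0.17, PPP1R3D at -0.07 and PPP1RL at 0.06. Under the lens, the brightest PPP1R3C probe set differed by -0.04, -0.12, 0.06 and 0.05 across -15 D at 6 hours, +15 D at 6 hours, -15 D at 3 days and +15 D at 3 days.

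**Figure D4:**
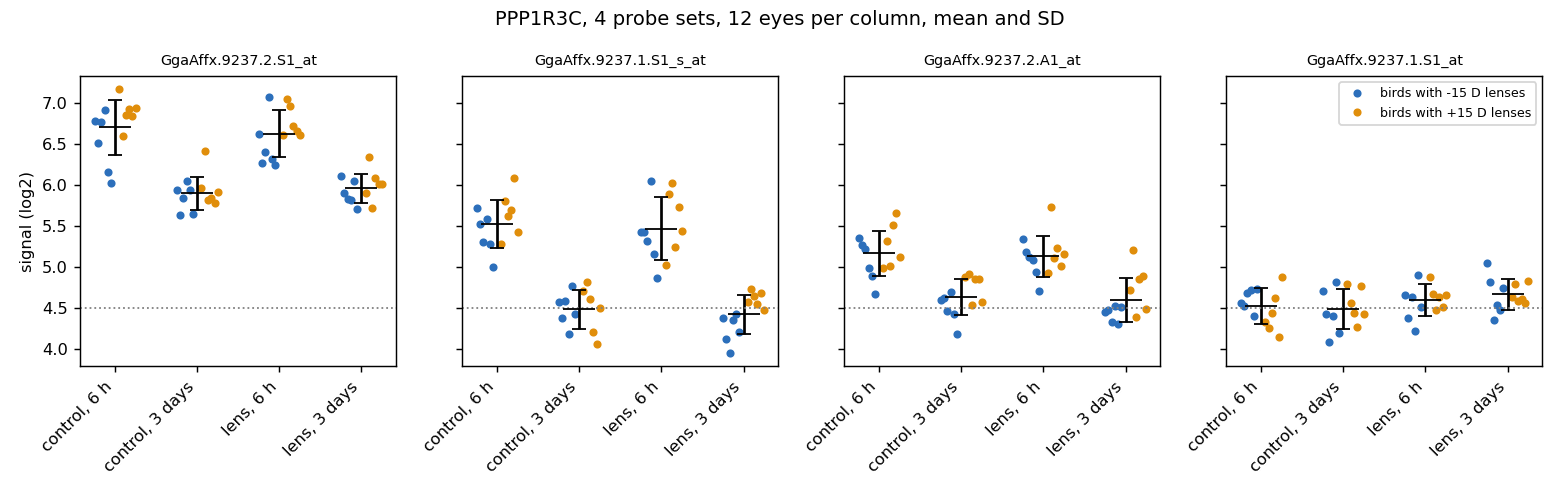
Signal (log2) of the 4 PPP1R3C probe sets in control and lens eyes at 6 hours and 3 days. Points are single eyes (blue for birds with -15 D lenses, orange for +15 D), bars are mean and SD of 12 eyes, and the dotted line is the background level of 4.50. The control mean of the brightest probe set falls from 6.71 to 5.90, and in the second panel the 6-hour and 3-day control eyes do not overlap.

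PPP1R1C fell from 10.66 ± 0.13 to 10.43 ± 0.14 (SD, n = 12 each), with ranges of 10.44 to 10.85 and 10.08 to 10.65 that overlapped. The difference was -0.23 (SE 0.06, limma adjusted p = 0.0336), with -0.26 within the -15 D birds and -0.19 within the +15 D birds. PPP1R13B rose from 11.52 ± 0.26 to 11.81 ± 0.05 (SD, n = 12 each). Its 6-hour eyes spread from 11.04 to 11.83, and all 3-day eyes lay between 11.76 and 11.95. The difference was 0.30 (SE 0.08, limma adjusted p = 0.0407), and its other 2 probe sets gave 0.30 and 0.29 without passing. These calls were less firm than that of PPP1R3C: over 35 alternative settings the PPP1R13B call was lost in 23 and the PPP1R1C call in 12.

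Just past the threshold lay PPP1R14C, a kinase-enhanced PP1 inhibitor, at -0.23 (SE 0.06, limma adjusted p = 0.0515). PPP1R9A, the actin-binding PP1 partner neurabin, was at -0.17 (limma adjusted p = 0.142) in the control eyes and at 0.02 in the lens eyes. All 3 B double prime genes of PP2A were higher at 3 days by their brightest probe sets, PPP2R3A by 0.17, PPP2R3B by 0.16 and PPP2R3C by 0.15, and none passed. The lens eyes of the same birds gave 10 called subunit probe sets of 120 for the same times, against 5.62% of all probe sets, among them PPP2R3A at 0.35 and PPP2R3C at 0.25 on the log2 scale.

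**Figure D5:**
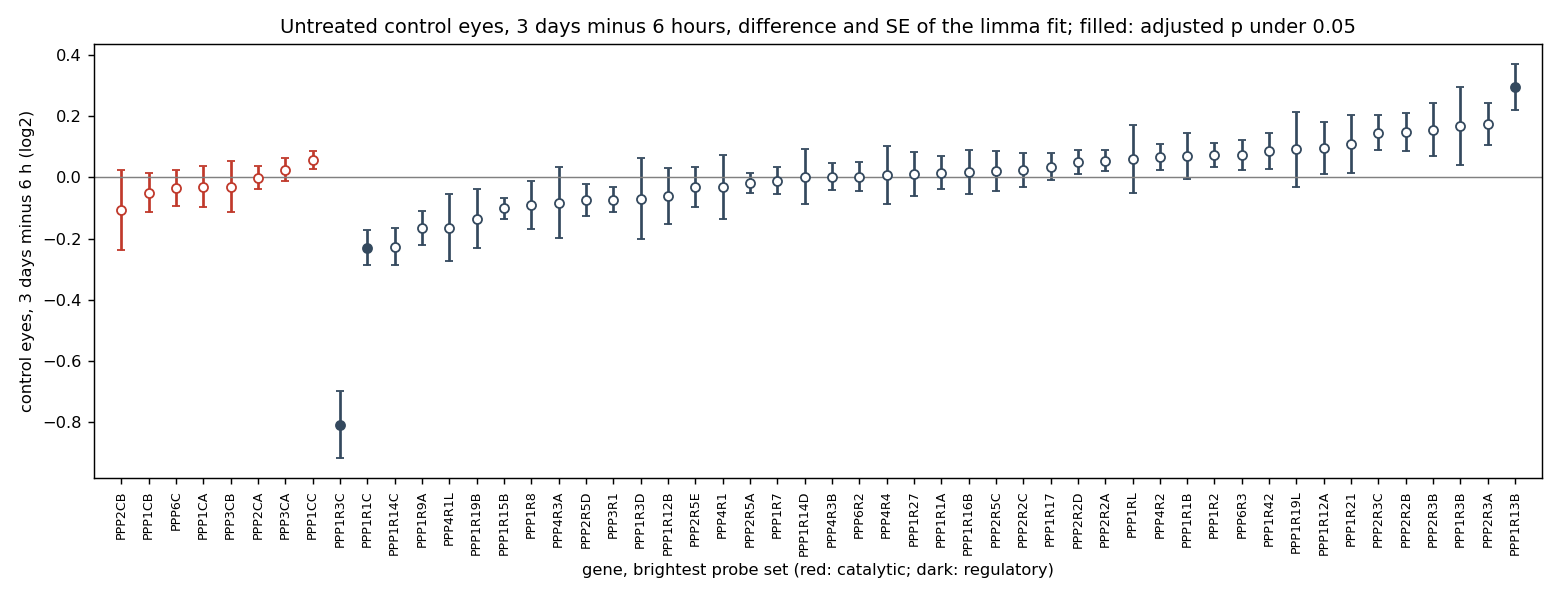
Control-eye difference (log2), 3 days minus 6 hours, of the brightest probe set of each of the 52 genes, with the SE of the limma fit. Red points are catalytic and dark points regulatory subunits, and filled points passed the test. PPP1R3C at -0.81 stands below all others, and no catalytic subunit lies outside -0.11 to 0.06.

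None of the 17 catalytic probe sets was called between the times, and by brightest probe set the 8 genes ranged from -0.11 to 0.06. The catalytic median was -0.03 and the regulatory median 0.01, a gap of -0.04 with an SD of 0.09 over 24 eyes. Of the 52 genes 23 were below 0, against 51.3% of all genes, and the median was 0.0054. Outside the naming rule, the brightest probe sets gave 1 call among the 27 genes of the partner list. They gave 0 among 14 calcineurin genes and 1 among 18 metal-dependent phosphatases. Over all 13009 genes 353 were called. The call on the partner list was PPEF2, itself a photoreceptor phosphatase with calcium-binding hands. PPEF2 fell by 0.64 (limma adjusted p = 0.0041), and PDP2, a pyruvate dehydrogenase phosphatase, rose by 0.55 (limma adjusted p = 0.0245). By dimmer probe sets PPM1E, a metal-dependent phosphatase, rose by 0.28 and 0.23 (limma adjusted p = 0.0059 and 0.0068). A dimmer PDP2 probe set rose by 0.59 (limma adjusted p = 0.0046).

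Markers of cell types also differed between the control eyes at the 2 times. The mean over the 6 measured of 8 listed photoreceptor genes was 10.23 ± 0.18 at 6 hours, with a range of 9.70 to 10.5, and 10.67 ± 0.15 at 3 days, with a range of 10.3 to 10.9 (SD, n = 12 each). Of those 6 genes, 3 rose, and 1 differed by -0.24 at an unadjusted limma p under 0.05 without passing. Of the 9 inner retina and Muller glia genes, 1 fell. Means over pigment epithelium genes were 9.81 ± 0.47 and 9.88 ± 0.47, over inner retina and Muller glia genes 12.7 ± 0.11 and 12.6 ± 0.03, and over striated muscle genes 6.40 ± 0.14 and 6.30 ± 0.12 (SD, n = 12 each). The part of the photoreceptor difference in the changes of PPP1R3C, PPP1R1C and PPP1R13B was not tested.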

How the data were processed

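For each probe set of an Affymetrix chicken array the deposited table gives a log2 signal. Per the submitters' processing notes the authors used RMA and Partek, whose versions no source here states. RMA subtracts background, brings every array to the same distribution and combines the probes of a set. Each array took biotin-labelled cDNA made from 100 ng of RNA, per the labels' protocols. RMA hides a shift common to most genes and compresses dim signals. Precision is set by the number of arrays, which hold no counts.

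The table held 38535 probe sets, and 153 control or reporter sets were left out. Genes were named from the platform annotation, and all 52 member symbols were found in RefSeq's gene table. Of the tested probe sets, 27168 had 1 symbol, 177 several and 11037 none. Tests used limma 3.58.1 in R 4.3.3, two-sided, with Benjamini-Hochberg adjustment over all 38382 probe sets and a threshold of 0.05. Lens comparisons used 1 fit of the 48 arrays in which each bird was a block, which leaves 20 residual degrees of freedom. The bird number in the sample titles pairs 2 eyes of 1 animal. The eyes' deviations from their group means correlated above 0.1 in 20 of 24 birds (median 0.42, range -0.23 to 0.85). Control eyes were compared without a block. "Rose" and "fell" mark results past the threshold.

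The members, the 3 partner lists, the marker lists and the rule for named genes were chosen with earlier results of these data known. Named were called probe sets, the 5 genes and 3 further probe sets with the lowest p per comparison, all catalytic genes, all PPP2R2A probe sets, the brightest gene per role and genes whose probe sets lay over 0.5 apart. Other members were named after their values were seen. The fits were tested on simulated data. Alternatives left out each bird, the block, the widest birds or dim probe sets, or added array weights, the actin ratio or array centring. No sequences were printed, since no sequence source was used here.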

Additional observations from a re-analysis of the deposited data

Results flagged for a closer look

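The check for single birds covered the called probe sets, those named for the lowest p per lens comparison and all PPP2R2A probe sets. Within these 43 sets of 6 within-bird differences, 4 had 1 bird that stood apart. Its gap to its nearest neighbour, divided by the whole range, passed Dixon's critical value for 6 samples. Chance gives about 1 in 20. All 4 concern bird 6 of a 6-hour condition, where bird 6 of -15 D and bird 6 of +15 D are different animals. After 6 hours of +15 D, PPP4R4 differed by -0.73 in bird 6 and by -0.34 to -0.16 in the others. PPP1R13B differed by -0.53 in the same bird and by -0.15 to 0.08 in the others. The brightest PPP2R2A probe set differed by -0.15 there, against 0.010 to 0.074 elsewhere. In bird 6 with 6 hours of -15 D, that PPP2R2A probe set differed by -0.095, against -0.0099 to 0.035 in the other birds.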

How the results depend on the processing

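Without the replicate block, so that the pairing of eyes was not used, the count of subunit probe sets called after 3 days of -15 D went from 1 to 0. It was 0 with the actin ratio as covariate and 0 on the mean of a gene's probe sets. Without the widest birds it was 2, and with array weights 8, where 2284 of all 38382 probe sets were called. The count was 1 in every fit that left out 1 bird, where 3 to 6 of all probe sets were called. Among probe sets above the median signal it was also 1, but that was the rise of the brightest PPP2R2A probe set. After 6 hours of -15 D the count went from 0 to 1 with array weights, and leaving out 1 bird gave 0 to 1, the 1 being the dimmest PPP2R2A probe set without bird 2. The +15 D counts stayed at 0 in every alternative run. In the control eyes the 5 calls became 2 in the +15 D birds alone, 3 among probe sets above the median signal, 3 without the widest birds, 2 on the mean of a gene's probe sets, 10 in the lens eyes and 3 to 7 on leaving out 1 eye. Bird numbers name different birds at each time, so no paired fit was made there. The brightest PPP1R3C probe set was called in every alternative that tested it; it lay under the median signal, so that filter left it out. On the mean of the gene's probe sets, PPP2R2A was below 0 after 3 days of -15 D (-0.20, limma adjusted p = 0.088), against 0.14 for its brightest probe set. That mean includes the probe set that fell, at -0.74. The direction of PPP1R9A reversed in the lens eyes (0.020, limma adjusted p = 0.906), and the cause was not tested. Over all probe sets the counts after 3 days of -15 D ran from 0 without the block to 2284 with array weights and from 3 to 6 on leaving out 1 bird, those after 6 hours of -15 D from 0 to 296, and those in the control eyes from 49 in the +15 D birds to 2158 in the lens eyes. Dim probe sets near background limit what can be seen.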

Other observations

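The dimmest probe set of PPP6R3, a regulatory subunit of PP6, held 1 bird far from the rest. In bird 3 with 3 days of -15 D the control eye read 10.64 and the lens eye 10.74 log2, while the 46 eyes of the other birds lay between 6.06 and 7.96. Among all 38382 probe sets, 26 (0.0677%) had 1 bird with both eyes over 1 log2 from the nearest other bird and within 0.5 of each other, by a rule chosen after these values were seen, and this was the 1 of 120 subunit probe sets among them. The other 3 PPP6R3 probe sets did not set the bird apart, with the brightest at 12.36 and 12.46 against 11.98 to 12.64 elsewhere. Leaving the bird out moved the control-eye difference between 3 days and 6 hours at this probe set from 0.56 to 0.31 log2. The probe set was not called in either fit.

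The dimmer probe set of PPP1RL, with an SD of 0.64 over the 24 control eyes, was the second most variable subunit probe set after that of PPP6R3 (SD 0.75), against a median SD of 0.18 over the 120. Its lowest control eye, at 4.66, was in bird 1 with 6 hours of +15 D, whose lens eye read 5.85. That control eye also had the highest ratio of 3' to 5' actin signal of all arrays, 4.41 log2. The median SD of the brightest probe sets was 0.14 for the catalytic and 0.17 for the regulatory genes.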
